A study of Mus musculus with 4 samples.

Results

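Mouse embryonic stem cells (ESCs) that lack Cripto were compared with WT ESCs in serum/LIF, the medium in which both were kept before any change of state. RNA-seq measured 1 library of each genotype in that medium. All genes on the autosomes and the X chromosome in the table of normalized counts were taken, which gave 15399 of 15462 genes. The other genes were 38 without annotation, 18 mitochondrial genes and 7 genes of the Y chromosome.

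Both ESC lines were R1 cells of the 129/Sv strain, 1 of them WT and the other Cripto KO. The study worked with a pair of independent Cripto KO clones, and which of them gave this library is not given in the sources used here. Serum/LIF was DMEM with foetal bovine serum and leukaemia inhibitory factor (LIF). The series holds 2 further libraries, WT F/A and Cripto KO F/A, from cells grown for 6 days in N2B27 with bFGF and Activin A at 20 ng/ml, which turns ESCs into epiblast stem cells (EpiSCs). No library is shared between the serum/LIF pair and the F/A pair, so the F/A values are given beside those of serum/LIF.

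Cripto, encoded by Tdgf1, is a small protein held to the cell surface by a lipid anchor. It is the co-receptor through which Nodal binds its Activin receptors and activates Smad2 and Smad3, and the Lefty proteins, themselves made in response to that signal, block it. Serum/LIF holds mouse ESCs in self-renewal through Stat3 and the BMP activity of serum, which induces the Id genes. ESCs in this medium are a mixed population in which Nanog, Dppa3 and Esrrb vary from cell to cell. ESCs in serum also transcribe part of the programme of germ cells, whose promoters are otherwise silenced by DNA methylation and by repressor complexes that contain E2F6 and MGA.

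The WT library held 17315442 counts and the Cripto KO library 16260578. Each value below is a raw read count, in the order WT then Cripto KO, and each log2 ratio is Cripto KO over WT of the normalized counts. With 1 library a group no test is possible, and no spread between cultures is known. Each log2 ratio is therefore given beside a counting interval only. This is the 95% Clopper-Pearson interval of the ratio of raw counts per library total. It covers counting error and not differences between cultures or clones. Its scaling is not that of the log2 ratio, and for genes with many reads it can exclude that ratio. Tet1 had a normalized fold of 1.63 and an interval of 1.65 to 1.77. Genes with many reads also have narrow intervals, so shares of intervals clear of 1 depend on read number. A gene was called when its normalized counts differed at least 2-fold and this interval lay wholly on the same side of 1.

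Of the 15399 genes, 209 (1.36%) were called higher and 297 (1.93%) were called lower in Cripto KO ESCs. The median log2 ratio of all genes was 0, and the middle part from the 25th to the 75th percentile ran from -0.18 to 0.20. With raw counts scaled by library totals the calls became 154 higher and 358 lower, so that 30.1% of calls were higher in place of 41.3%. Most calls were of weakly expressed genes. Of the genes in the lowest of 10 equal bins by mean normalized count 9.86% were called, against 0.195% in the highest bin. At least 200 reads in the higher library were behind 29 of the genes called higher and 44 of those called lower.

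**Figure D1:**
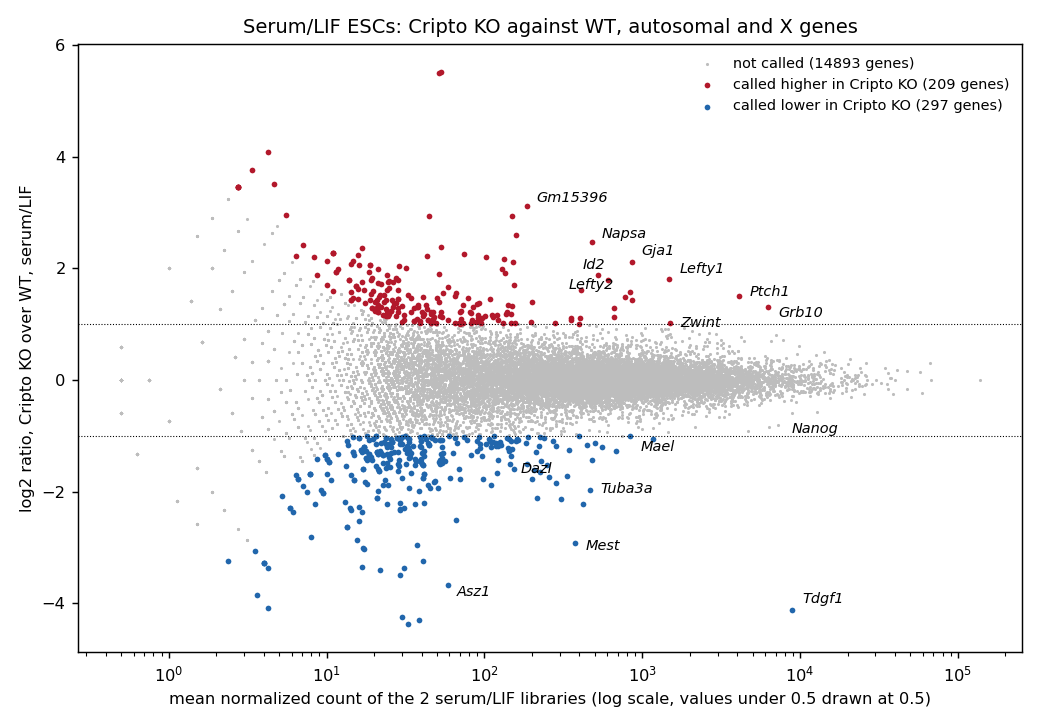
Each dot is a gene, placed by the mean normalized count of both serum/LIF libraries (log scale) and by its log2 ratio of Cripto KO over WT. Red dots are the 209 genes called higher, blue dots the 297 called lower, dotted lines mark a 2-fold difference, and Tdgf1 stands alone among highly expressed genes at a log2 ratio of -4.13.

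Tdgf1, the targeted gene, was read first as a check of the labels. It lies at chr9:110842114-110848662 on the minus strand (NCBIM37). It had 18714 reads in WT and 945 in Cripto KO serum/LIF, a log2 ratio of -4.13 with a counting interval of the ratio from 0.0503 to 0.0574. In F/A it had 1572 and 86 reads. The Cripto KO library was thus low in Tdgf1 in each culture, with reads left over the gene in both.

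Genes that mark pluripotent ESCs were present at high level in both libraries. Of 27 naive pluripotency genes none was called in either direction, and their median log2 ratio was -0.17. Nanog, the homeodomain factor of naive cells, had 11633 and 7270 reads, a log2 ratio of -0.59 with an interval of 0.646 to 0.685. Dppa5a (16948 and 10689 reads, -0.58) and Tbx3 (8806 and 4622 reads, -0.85), a T-box factor of naive ESCs, were lower to a like degree. Esrrb, an orphan nuclear receptor, had 15699 and 16258 reads (0.18). Spp1 and Mybl2, with the most reads of the list, had log2 ratios of 0.10 and 0.06. Within the naive list 15 genes had an interval wholly below 1 and 6 wholly above it, where 21.8% and 18.7% of all genes did so.

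Among 24 general pluripotency genes the median log2 ratio was 0.06, with 7 intervals below 1 and 13 above it. Pou5f1, which encodes Oct4, had 26857 and 21995 reads (-0.15), and Sox2 had 12560 and 12669 (0.11). Tdgf1 itself was the sole gene called in this list. Higher values that stayed under 2-fold were those of Foxd3 (736 and 1238 reads, 0.84), Lin28a (3580 and 5542 reads, 0.69) and Mycn (2737 and 3929 reads, 0.57). Dppa3 was not in the normalized table, and its raw counts were 10 in WT and 13 in Cripto KO.

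The Nodal and Activin list showed the clearest named differences among signalling genes. Of 30 genes measured 4 (13.3%) were called higher, against 1.36% of all genes, and 2 were called lower. Lefty1, a secreted inhibitor of Nodal, had 684 reads in WT and 2330 in Cripto KO, a log2 ratio of 1.82 with an interval of 3.33 to 3.96. Lefty2, its neighbour on chromosome 1, had 442 and 1224 reads (1.57, interval 2.64 to 3.30). In F/A the order of the genotypes was the other way round for both genes. Lefty1 had 1200 reads in WT F/A and 380 in Cripto KO F/A (-1.70), and Lefty2 had 571 and 238 (-1.31). Among the 4 libraries, Cripto KO serum/LIF therefore had the highest count of each Lefty gene.

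Calls in this list other than Tdgf1 and the Lefty genes were of weakly expressed genes. Inhbe, which encodes an Activin subunit, was called higher with 93 and 202 reads (1.33). Eomes, a T-box factor of the primitive streak, was called lower with 86 and 27 reads (-1.50), and was also called lower in F/A with 1963 and 422 reads (-2.29). Nodal itself had 547 and 770 reads, a log2 ratio of 0.60 that stayed under 2-fold. Acvr1b, the type I receptor, had 1313 and 1282 reads (0.04). Smad2 (0.20), Smad3 (-0.09), Smad4 (-0.09) and Foxh1 (0.19), which carry the signal to DNA, all lay within 0.20 of 0. Skil, a feedback repressor of Smad proteins, had 2136 and 3298 reads (0.68), and Smad7 had 1666 and 1439 (-0.15).

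All 4 Id genes, the immediate targets of BMP signalling, had intervals above 1. Id2 had 291 and 921 reads, a log2 ratio of 1.79 with an interval of 2.95 to 3.86, and was called higher in F/A as well with 403 and 1676 reads (2.04). Id4 was called with 68 and 120 reads (1.06). Id1 (409 and 674 reads, 0.84) and Id3 (325 and 450 reads, 0.62) stayed under 2-fold, with intervals of 1.55 to 1.99 and 1.28 to 1.71. Of 26 BMP genes Id2 and Id4 were the sole calls (7.69% higher, against 1.36% of all genes). The ligand Bmp4 had 528 and 347 reads (-0.48) and Smad1 had 500 and 425 (-0.11).

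The Wnt list held few calls. Of 34 genes 2 (5.88%) were called lower and none higher, against 1.93% and 1.36% of all genes. At these shares a list of this size can lack a higher call, so its absence says little. The median log2 ratio of the list was -0.14. Intervals lay below 1 for 7 genes (20.6%), against 21.8% of all genes. They lay above 1 for 2 genes, where 18.7% of all genes did so. Summed normalized counts of the list were 10274.9 in WT and 10266.5 in Cripto KO serum/LIF. Lef1, a DNA-binding partner of beta-catenin, had 209 and 90 reads (-1.05, interval 0.354 to 0.590). Notum, a secreted enzyme that inactivates Wnt, had 322 and 140 reads (-1.02, interval 0.377 to 0.566). Axin2, a widely used readout of the pathway, had 145 and 99 reads (-0.40), with an interval of 0.557 to 0.945. Fzd7, the receptor with the most reads in the list, had 2839 and 3441 (0.33). In F/A, Notum had 29 reads in WT and 156 in Cripto KO (2.37), and Lef1 had 844 and 1538 (0.87). Notum overlaps noncoding genes on the opposite strand, and whether counting used the strand is not given in the sources used here.

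Ptch1, the Hedgehog receptor and a direct target of the pathway, was among the largest differences by count, with 2267 and 6166 reads (1.5, interval 2.76 to 3.04). Further Hedgehog genes were looked up after this value was seen. Gli1, a target and transcription factor of the pathway, had 2225 and 3791 reads (0.83, interval 1.72 to 1.91). Hhip, a target that binds Hedgehog ligands, was called with 87 and 157 reads (1.07). Gli2 (4067 and 3923 reads, 0.02), Gli3 (250 and 201 reads, -0.13) and Smo (674 and 736 reads, 0.23) differed little. The ligand gene Ihh had 9 and 5 reads (-0.61) and was not called. In F/A Ihh was called lower with 40 and 12 reads (-1.53). The other genes lay in F/A between -0.38 for Ptch1 and 0.17 for Gli3.

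**Figure D2:**
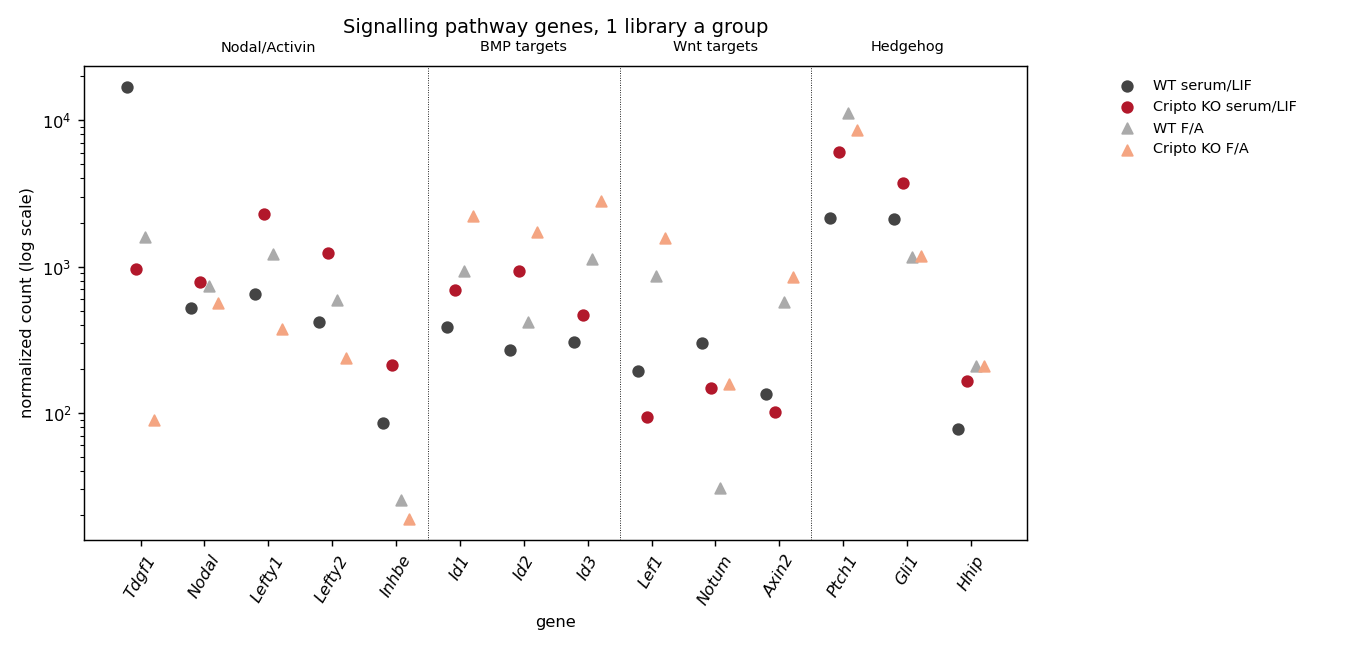
Normalized counts (log scale) of 14 signalling genes in the 4 libraries, with circles for serum/LIF and triangles for F/A. Lefty1 and Lefty2 were higher in Cripto KO than in WT in serum/LIF and lower in F/A, whereas Id2 was higher in Cripto KO in both cultures and Notum was lower in serum/LIF and higher in F/A.

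In the LIF and Stat3 list 1 of 26 genes (3.85%) was called higher, against 1.36% of all genes, and none lower. The gene called was Cebpb, a leucine zipper factor, with 218 and 605 reads (1.60, interval 2.53 to 3.47). Stat3 had 3718 and 3695 reads (0.06) and Socs3, its feedback inhibitor, had 2977 and 2253 (-0.34). In the FGF/ERK list 2 of 30 genes (6.67%) were called higher, against 1.36% of all genes. These were Egr2 (25 and 47 reads, 1.22) and Fgf15 (49 and 112 reads, 1.47). Both were also called higher in F/A, with 38 and 108 reads for Egr2 and 45 and 258 for Fgf15. Targets with more reads were not called, among them Etv4 (1904 and 1173 reads, -0.62), Etv5 (8709 and 6806, -0.30) and Dusp6 (1030 and 1123, 0.20).

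Germline genes were often lower in Cripto KO ESCs. Of 43 genes 11 (25.6%) were called lower, against 1.93% of all genes, and 1 was called higher. The median log2 ratio of the list was -0.67, and 38 of the 43 genes lay below 0. Their promoters are shown first, since the letters bound by E2F-type and MGA-type repressors can be looked up in them. Upstream sequence was taken from RefSeq (GRCm38.p6), as the 250 bases before the start of transcription, and all 11 genes called lower had an entry. Capitals mark GGCGGGA, the core of E2F sites, or its reverse complement TCCCGCC, and CACGTG, the E-box, which reads the same on both strands. The motifs do not overlap each other.
Mael, chr1:166238745-166238994, minus strand: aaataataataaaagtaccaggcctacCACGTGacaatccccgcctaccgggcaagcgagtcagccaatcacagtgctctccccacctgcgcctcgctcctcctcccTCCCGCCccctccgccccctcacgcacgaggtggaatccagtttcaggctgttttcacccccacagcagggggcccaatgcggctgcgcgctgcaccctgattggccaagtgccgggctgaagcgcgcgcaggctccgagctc
Tuba3a, chr6:125286082-125286331, minus strand: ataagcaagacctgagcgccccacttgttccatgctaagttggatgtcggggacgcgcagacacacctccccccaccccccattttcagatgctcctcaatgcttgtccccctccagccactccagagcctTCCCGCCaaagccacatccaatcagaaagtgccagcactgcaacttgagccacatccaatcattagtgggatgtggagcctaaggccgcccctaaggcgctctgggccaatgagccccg
Slc25a31, chr3:40708621-40708870, plus strand: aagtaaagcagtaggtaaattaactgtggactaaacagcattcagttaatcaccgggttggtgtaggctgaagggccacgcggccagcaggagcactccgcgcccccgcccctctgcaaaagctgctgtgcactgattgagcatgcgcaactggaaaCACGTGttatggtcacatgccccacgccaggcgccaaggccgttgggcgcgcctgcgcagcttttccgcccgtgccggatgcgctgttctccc
Nxf2, the first of its 2 starts, chrX:134964755-134965004, minus strand: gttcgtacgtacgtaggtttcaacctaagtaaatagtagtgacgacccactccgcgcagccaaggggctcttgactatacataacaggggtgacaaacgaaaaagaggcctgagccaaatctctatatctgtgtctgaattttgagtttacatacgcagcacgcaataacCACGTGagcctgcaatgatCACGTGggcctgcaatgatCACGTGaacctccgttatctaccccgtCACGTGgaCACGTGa
Dazl, chr17:50293621-50293870, minus strand: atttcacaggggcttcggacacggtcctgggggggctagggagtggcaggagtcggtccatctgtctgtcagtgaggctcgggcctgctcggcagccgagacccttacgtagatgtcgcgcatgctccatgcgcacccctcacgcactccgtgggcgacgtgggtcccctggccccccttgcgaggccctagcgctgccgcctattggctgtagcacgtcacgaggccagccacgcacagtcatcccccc
The upstream bases of Mael held both motifs, those of Tuba3a the E2F-type letters, those of Slc25a31 and of Nxf2 the E-box, and those of Dazl neither. Of the 11 genes 3 held the E2F-type letters, 3 the E-box, 5 either of them and 6 neither. Tuba3a and Tuba3b, close copies of each other, are both among the 3 genes with the E2F-type letters. Nxf2 was counted by the first of its 2 starts, since the other held neither motif. Its place in these counts was thus set by that choice. The shares that follow are by promoter and not by gene, and involved no such choice, so the counts cannot be read against them. Over all 32851 RefSeq promoters of the same length 9.75% held the E2F-type letters, 6.02% the E-box and 14.9% either. A match describes the letters and says nothing on binding.

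Dazl, which encodes an RNA-binding protein needed for germ cell development, had 541 reads in WT and 147 in Cripto KO, a log2 ratio of -1.73 with an interval of 0.239 to 0.348. Mael, a protein of the piRNA pathway, had 1158 and 541 reads (-1.01, interval 0.448 to 0.551). Asz1, another piRNA factor, had 118 and 9 (-3.67). Tuba3a and Tuba3b, alpha-tubulins of the testis, had 772 and 179 reads (-1.97) and 74 and 9 reads (-2.96). They are close copies of each other, so reads could be split between them. Slc25a31, the ADP/ATP carrier of sperm, had 231 and 73 (-1.51). The remaining genes called lower in the list were Magea4, Nxf2, Mageb4, Rhox13 and Tex101 (41 and 14 reads, -1.33).

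Several germline genes with more reads were lower by less than 2-fold. Mov10l1, a helicase of the piRNA pathway, had 817 and 399 reads (-0.93), Stra8, the gene of meiotic entry, had 466 and 244 (-0.78), and Rpl10l, a ribosomal protein gene of the testis, had 2925 and 1547 (-0.85). Sohlh2, a germ cell transcription factor, had 3093 and 2141 (-0.46). The list was not uniform. Sycp3, a protein of the synaptonemal complex, was called higher with 441 and 895 reads (1.13, interval 1.93 to 2.43). Ddx4, the Vasa helicase, had 498 and 493 (0.11) and Prdm1 had 618 and 884 (0.61). The summed normalized counts of the list were 45689 in WT and 35336 in Cripto KO serum/LIF, against 2743 and 2054 in F/A. Dazl had 0 reads in both F/A libraries, and Mael had 1 and 2.

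**Figure D3:**
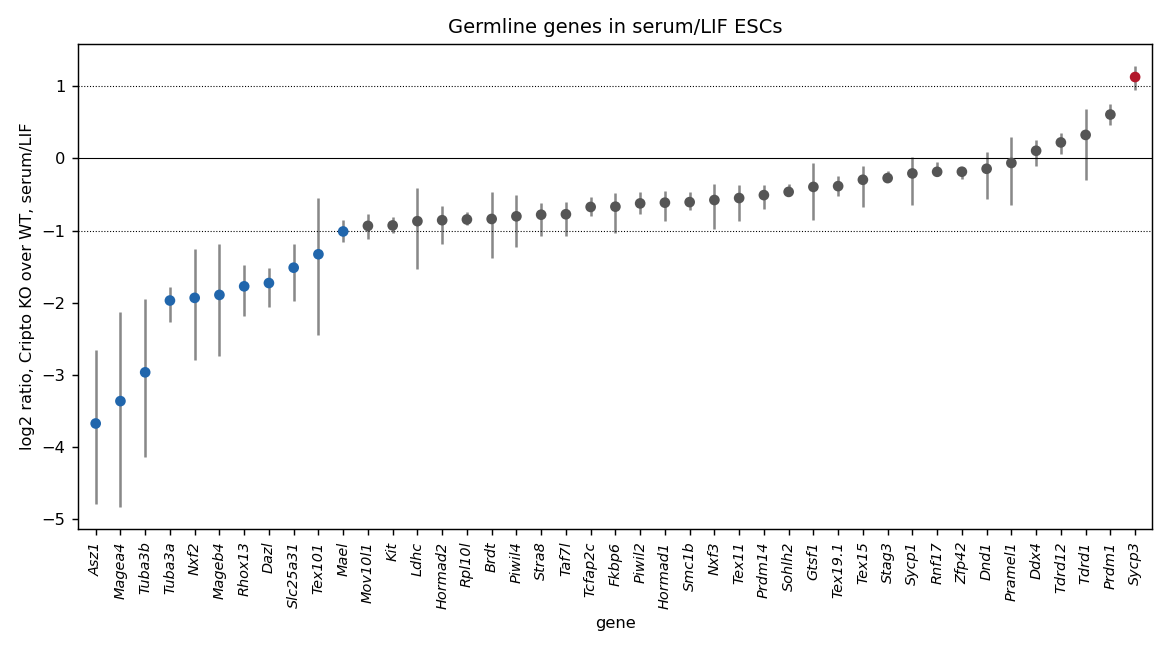
Log2 ratio of Cripto KO over WT in serum/LIF for the 43 germline genes, ordered by value. Dots are the ratio of normalized counts, lines the 95% counting interval of the ratio of raw counts per library total, blue marks the 11 genes called lower and red the 1 called higher, Sycp3.

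Clustered genes of the X chromosome had the lowest median of the lists. Of 21 measured genes of the Xlr, Rhox, Mage and Nxf families and their neighbours 15 (71.4%) were called lower and none was called higher. Of all genes 1.93% were called lower and 1.36% higher. The median log2 ratio of the list was -1.75. Weakly expressed members carried much of this value: over the 10 members with a mean of at least 50 raw counts, of which 5 were called lower, the median was -0.82. Rhox13, a homeobox gene of germ cells, had 332 and 88 reads (-1.77, interval 0.221 to 0.358). Xlr3a had 329 and 128 (-1.19), Xlr3b had 186 and 46 (-1.88) and Xlr5a had 70 and 3 (-4.38, interval 0.00919 to 0.139). Of these 15 genes, Magea4, Nxf2, Mageb4 and Rhox13 are also in the germline list. Members of these families are close copies, and a read that maps to several of them cannot be assigned. Not every gene of the list was called, as Mageb16 had 583 and 461 reads (-0.23) and Usp9x had 9262 and 10084 (0.18).

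The X chromosome as a whole held more of the genes called lower. Of its 553 genes 33 (5.97%) were called lower, against 264 (1.78%) of the 14846 autosomal genes, and 18 of the 33 were outside the X-linked list. Scml2, a Polycomb protein of germ cells, had 524 and 109 reads (-2.13), and Efhc2 had 374 and 78 (-2.12). The median log2 ratio of X genes with a mean normalized count of at least 100 was 0.03. Xist, the RNA that coats an inactive X, had 236 and 219 reads (0.07).

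Y-linked genes were not part of the comparison. All 7 had counting intervals below 1 in serum/LIF, among them Ddx3y with 993 and 264 reads, Eif2s3y with 1017 and 270, and Uty with 607 and 188. In F/A the interval lay below 1 for 3 of the 7, with 1488 and 328 reads for Ddx3y, 1461 and 448 for Eif2s3y, and 623 and 146 for Uty. Their part in the shift of X-linked and germline genes was not tested.

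Among 49 imprinted genes 4 (8.16%) were called higher and 1 (2.04%) lower, against 1.36% and 1.93% of all genes, with a median log2 ratio of 0.03. Mest, a hydrolase expressed from the paternal allele, had the largest fall after Tdgf1 among genes with at least 200 reads, with 688 and 84 (-2.92, interval 0.102 to 0.163). It was also called lower in F/A, with 4735 and 920 reads (-2.42). Grb10, an adaptor that restrains growth factor signalling, had 3783 and 9147 reads (1.31, interval 2.48 to 2.67). H19, a noncoding RNA expressed from the maternal allele, had 408 and 922 (1.29) and was called higher in F/A too, with 12078 and 36622. Igf2, its neighbour expressed from the other allele, had 22 and 49 reads (1.46), and Magel2 had 10 and 22 (1.47). Meg3 (5190 and 3947 reads, -0.34) and Rian (4911 and 3816 reads, -0.28) of the Dlk1 domain differed by less than 2-fold. Peg3 had 928 and 1332 (0.59) and Snrpn had 3999 and 3206 (-0.26). Mest overlaps Copg2 on the opposite strand, which had 1992 and 1642 reads.

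A stretch of chromosome 10 was higher as a block. For each chromosome a run of at least 31 neighbouring genes was sought, over 10928 genes with a mean normalized count of at least 100. The run kept was that which, given a level of its own, left the smallest summed absolute deviation of the ratios. Such a run need not have the largest difference in median. On chromosome 10 this run went from Gopc to Zwint, chr10:52056891-72137712 (NCBIM37), a length of 20.1 Mb with 69 genes. Its median log2 ratio was 0.56, against 0.03 over the other 464 genes of the chromosome, and 67 of the 69 genes lay above 0. The exceptions were 1110002J07Rik (142 and 84 reads, -0.61) and Slc29a3, a nucleoside transporter (266 and 216 reads, -0.12). The bounds were set from these ratios, so they are a description. On the other chromosomes the run found differed from the rest by between -0.24 on chromosome 9 and 0.22 on chromosome 1.

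The 31 genes before the block had a median log2 ratio of -0.05 and the 31 genes after it -0.09. The bounds were placed to set the block apart from the rest, so this contrast is also a description and no support for it. Inside the block the running median of 31 genes went from 0.36 to 0.59, and windows near its ends reach past it. On any other chromosome the highest running median was 0.21. The counting interval lay above 1 for 58 of the block's 69 genes and below 1 for 1, while 4 of the 69 were called at 2-fold. These were Gja1, Reep3, Zwint and Ube2d1. Without these 4 genes the median was 0.54. Summed normalized counts of the 69 genes were 54103 in WT and 80356 in Cripto KO serum/LIF, a ratio of 1.49.

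The F/A pair did not show the block. The median log2 ratio of the same 69 genes was 0.01 in F/A, and their summed normalized counts were 103761 in WT F/A and 98805 in Cripto KO F/A, a ratio of 0.952. Between cultures these genes had a median log2 ratio of 0.84 for WT F/A over WT serum/LIF and 0.18 for Cripto KO F/A over Cripto KO serum/LIF, where the medians over all other genes were -0.22 and -0.17. Those values use the same libraries as the comparison itself.

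**Figure D4:**
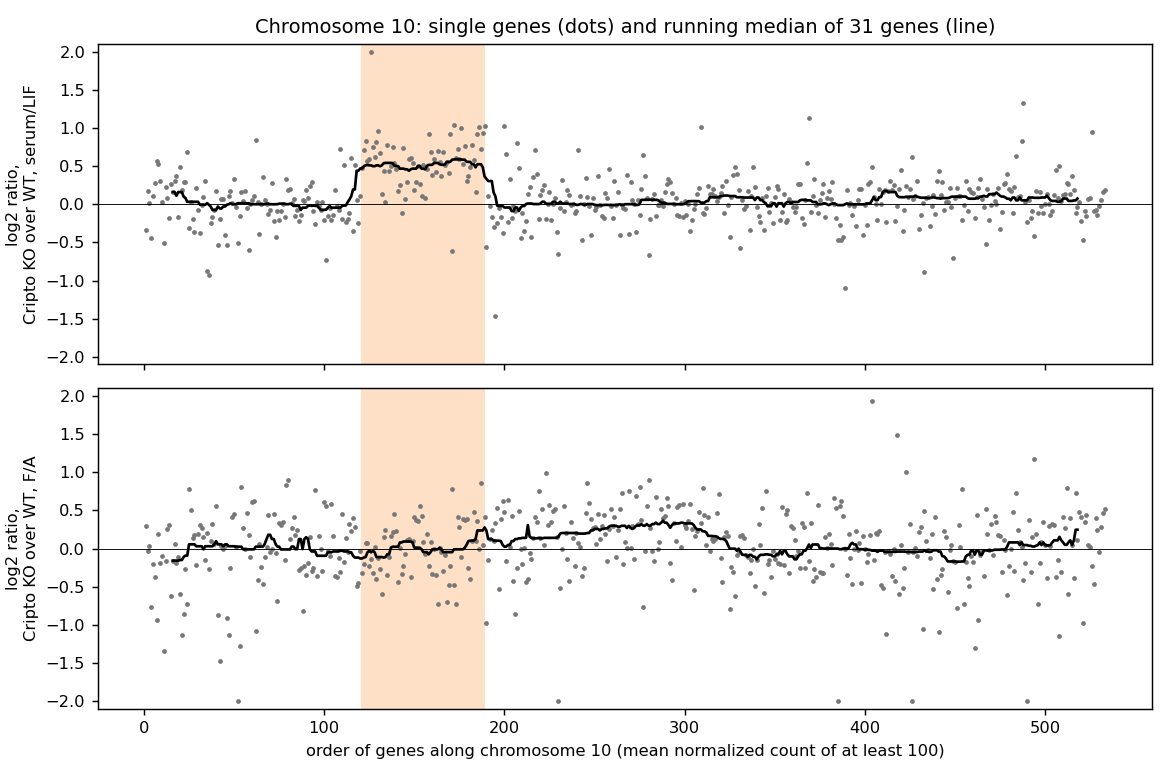
Log2 ratio of Cripto KO over WT along chromosome 10 by gene order, for serum/LIF above and F/A below. Dots are genes, with 1 gene in the upper and 5 in the lower panel drawn at the edge, the line is the running median of 31 genes, and the shaded run of 69 genes stands above 0 in serum/LIF alone of the 2 panels.

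The genes called and those with the most familiar roles are given next. Gja1, the gap junction protein connexin 43, had 343 and 1387 reads, a log2 ratio of 2.11 with an interval of 3.82 to 4.86, the largest in the block. Zwint, a protein of the kinetochore, had 1028 and 2033 (1.02). Nodal lies in the block as well, and its log2 ratio of 0.60 was close to the block's median. Tet1, the methylcytosine dioxygenase of ESCs, had 5210 and 8346 reads (0.70), whereas Tet2 on chromosome 3 had 4451 and 4529 (0.10). Sirt1, a deacetylase, had 949 and 1746 reads (0.92), and Tfam, the main factor of mitochondrial DNA packaging, had 1047 and 1923 (0.92). Jmjd1c had 2030 and 2999 (0.61), Ddit4 had 1531 and 2531 (0.75), and Cdk1 had 1634 and 1966 (0.30). Hk1, a hexokinase, had 1072 and 1070 reads (0.08), among the lowest ratios in the block. Egr2 is also inside the block but had too few reads to count among the 69.

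The lowest running median of any 31 genes was -0.26, on chromosome 9 from Als2cl to Plcd1, a window that holds Tdgf1. In F/A its median was -0.01. The standard deviation of all 10328 running medians was 0.0756 in serum/LIF. Medians of whole chromosomes lay between -0.07 on chromosome 1 and 0.07 on chromosome 10.

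Further genes with large ratios were in none of the lists. Gm15396, a lincRNA, had 45 and 323 reads (3.12, interval 5.58 to 10.7), and Napsa, an aspartic protease, had 159 and 797 (2.47, interval 4.50 to 6.37). The pair overlap on opposite strands of chromosome 7, so their reads cannot be told apart without strand. Miip had 41 and 252 reads (2.94), Slc23a1, a transporter of vitamin C, had 53 and 260 (2.59), and Gna14, a G protein subunit, had 56 and 205 (2.16). Nkx6-3, a homeobox gene, had 64 and 232 (2.12), Stard8 had 64 and 202 (1.92), Tbc1d9 had 81 and 224 (1.71), and Ina, an intermediate filament of neurons, had 241 and 803 (1.87). The largest ratios of all, named after their values were seen, were those of 4930515G01Rik (3 and 100 reads, interval 11.8 to 175) and Gm6043 (3 and 98 reads, interval 11.6 to 172). Gm6043 had 1 and 80 reads in F/A, and 4930515G01Rik had 66 and 70.

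Among genes called lower, Gm949 had 723 and 140 reads (-2.23), and it had 0 in both F/A libraries. Cyp2b23, a cytochrome P450, had 467 and 118 (-1.84), 4933427D06Rik had 418 and 113 (-1.74), and Nell2, a secreted protein, had 361 and 105 (-1.65). 2410076I21Rik (332 and 99 reads, -1.61), Itpka, an inositol kinase (246 and 74, -1.59), and Gm364 (390 and 121, -1.53) followed. Several named genes overlap a gene on the opposite strand whose reads could be mixed with theirs, among them Ina with Nt5c2, Cebpb with Tmem189, Reep3 with Jmjd1c, Id4, Fgf15 and 2410076I21Rik. By difference of normalized counts the leading genes after Tdgf1 were A2m, the protease inhibitor alpha-2-macroglobulin, with 1638 and 742 reads (-1.05), Slc13a5, a citrate transporter, with 995 and 383 (-1.28), Mest and Mael.

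Calls among markers of differentiated lineages were mostly of weakly expressed genes. Some markers with many reads were not called, such as Apoe of primitive endoderm (10818 and 13236) and Vim of fibroblasts (2521 and 2333). Of 27 primitive endoderm genes 2 (7.41%) were called lower, against 1.93% of all genes, namely Cubn (56 and 11 reads, -2.20) and Gata6 (18 and 6 reads, -1.42). Gata4 had 65 and 48 reads (-0.22) and Sox17 10 and 9 (0.13). Of 24 trophoblast genes 4 (16.7%) were called lower, against 1.93% of all genes, namely Krt7 (71 and 19 reads), Krt19 (164 and 65), Esx1 (37 and 13) and Eomes. Calls were common among weak genes in general, at 9.86% and 11.8% in either direction for the lowest bins by level. Cdx2, the defining factor of that lineage, had 2 and 1 reads. Of 16 neural genes 2 (12.5%) were called higher, against 1.36% of all genes, and 7 lay below 0. The genes called were Elavl3 (57 and 110 reads, 1.22) and Syt1 (15 and 34, 1.52). Stmn2, the neural gene with the most reads, had 4617 and 3219 (-0.45), and Pax6 had 121 and 167 (0.67). No fibroblast gene of 26 was called, and Col1a1 had 459 and 416 reads (-0.02). The summed normalized counts of the fibroblast list were 47739 in WT and 52858 in Cripto KO, those of the primitive endoderm list 32035 and 34598, those of the trophoblast list 4618 and 4085, and those of the neural list 7343 and 6785. In such bulk samples fewer cells of a type and less RNA per cell cannot be told apart.

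**Figure D5:**
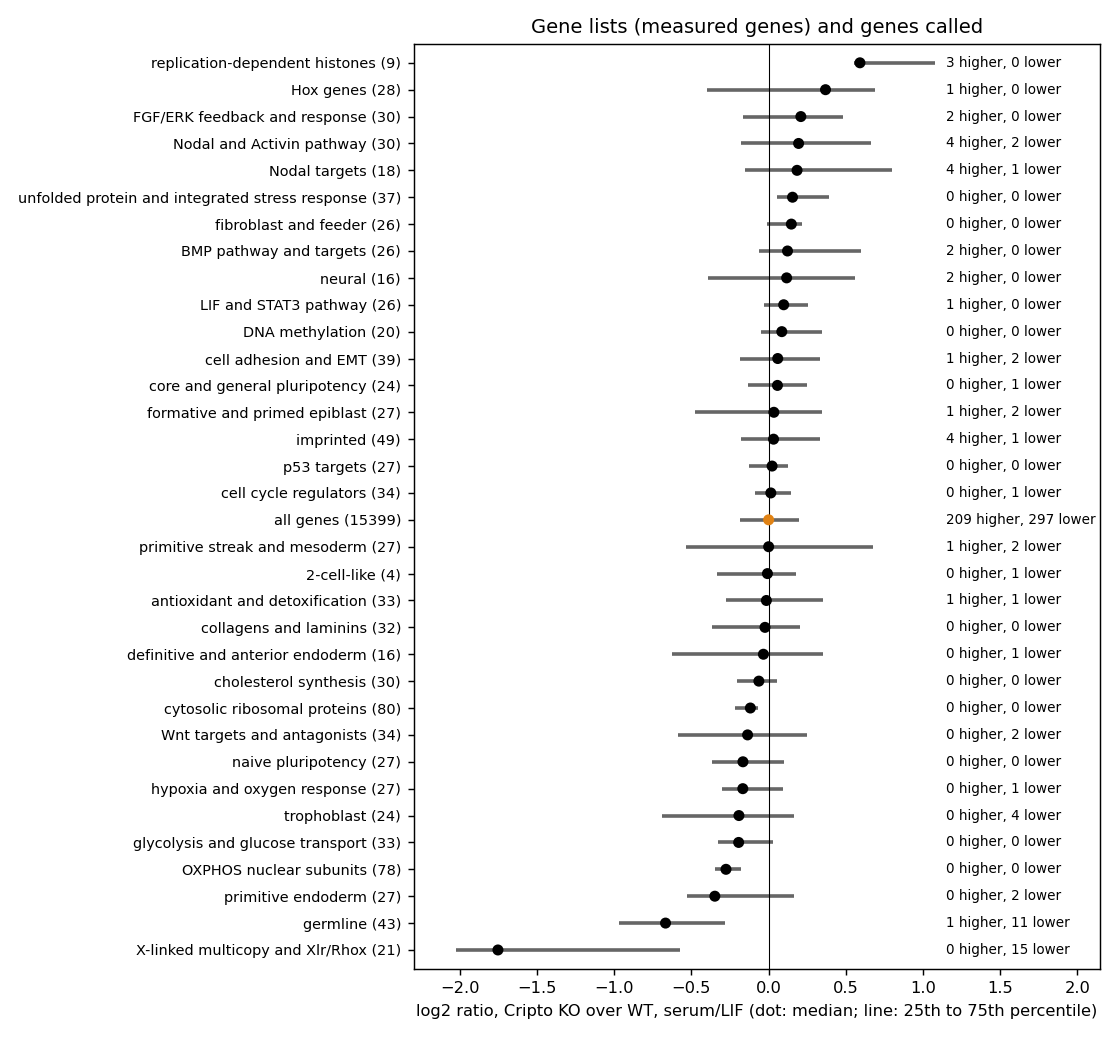
Median log2 ratio of Cripto KO over WT in serum/LIF for 33 gene lists and all genes (orange dot), with lines from the 25th to the 75th percentile of each list and the numbers of genes called at the right. The X-linked list stands lowest at -1.75 and the germline list next at -0.67, and the all-gene median is 0.

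Some lists moved by little but in nearly every gene. Of 78 nuclear genes of oxidative phosphorylation (OXPHOS) 65 (83.3%) had a counting interval below 1, against 21.8% of all genes, with none called and a median of -0.28. Of 80 cytosolic ribosomal protein genes 72 (90%) did so, at a median of -0.12. Genes with many reads have narrow intervals, so the share over all genes is no like-for-like background. The intervals also rest on library totals: Atp5b had a log2 ratio of 0 and an interval of 0.888 to 0.912. By normalized counts 77 of the 78 and 73 of the 80 genes lay below 0. In F/A the medians were 0.51 and 0.57. Both lists consist largely of short transcripts. Over the 9331 genes with a mean normalized count of at least 200 the ratio moved with transcript length. In the eighth of these genes with the shortest transcripts the median log2 ratio was -0.08, and in the eighth with the longest it was 0.08. In F/A the same eighths had medians of 0.17 and -0.28. After subtraction of the running median over transcript length the medians of the OXPHOS and ribosomal lists in serum/LIF were -0.24 and -0.08. Of 37 genes of the unfolded protein and integrated stress responses none was called, with a median of 0.15 and 25 intervals above 1, and Atf4, their shared regulator, had 5051 and 5790 reads (0.26).

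Among lincRNAs more genes were called higher than lower. Of 633 lincRNAs (4.42% called) 22 were higher and 6 lower, whereas of 13939 protein-coding genes (3.09% called) 159 were higher and 272 lower. Of 529 processed transcripts 18 were called higher and 14 lower. Over all genes 1.36% were called higher and 1.93% lower, and the balance of higher to lower calls moved with the scaling. All 3 genes called among 9 histone genes were higher, Hist1h4i, Hist2h2bb and Hist2h3c2, and none had more than 77 reads. In the DNA methylation list no gene of 20 was called, with 10 intervals above 1 and 2 below it. Tet1 (0.70), in the block of chromosome 10, had the highest ratio, and the de novo methyltransferase gene Dnmt3b had 1593 and 1971 reads (0.34, interval 1.23 to 1.41). Dnmt1 (0.09), Uhrf1 (-0.04) and Dnmt3l (-0.05) lay near 0.

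The genes called in serum/LIF were then followed in F/A, where 452 of the 15399 genes (2.94%) were called higher and 619 (4.02%) lower in Cripto KO. Of the 209 genes higher in serum/LIF 16 (7.66%) were called higher and 22 (10.5%) lower in F/A. Of the 297 genes lower in serum/LIF 24 (8.08%) were called lower and 11 (3.70%) higher, and 106 had no more than 3 reads in WT F/A and no more than 6 in Cripto KO F/A, a library whose counts are nearly all even. In all, 220 of the 506 genes had the same sign in both cultures, and not all the others were reversed. Of the genes called higher in serum/LIF 78 had the same sign in F/A, 130 the opposite sign and 1 a log2 ratio of 0. Of those called lower 142 had the same sign, 101 the opposite sign and 54 a log2 ratio of 0. Genes called in the same direction in both included Tdgf1, Mest, Eomes and Cubn on the lower side and Id2, H19, Fgf15, Egr2, Hoxa7 and Gm6043 on the higher. Across 9329 genes with a mean normalized count above 200, which are not independent replicates, the log2 ratios of both cultures had a Pearson correlation of -0.13 and a Spearman correlation of -0.25.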

How the data were processed

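RNA from 4 cultures was sequenced as paired ends on a HiSeq instrument, and 2 of these libraries, 1 a group, were compared here. The authors aligned reads with TopHat2 2.0.13 to mm9 (NCBIM37) and deposited raw read counts per gene from HTSeq 0.6.1p1. They also deposited a normalized signal per gene, made by full quantile normalization of all 4 libraries and a filter on low counts. Whether counting used the strand is not given in the sources used here. Quantile normalization gives every library the same distribution, so a shift shared by most genes would not be seen.

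Symbols, positions and lengths came from GENCODE M1 on the same build. Log2 ratios used the normalized signal with 0 replaced by 0.5. Intervals were 95% Clopper-Pearson intervals on raw counts over library totals, and cover counting error only, since reads are not independent molecules. Calls needed a 2-fold ratio and an interval clear of 1. Nearly all counts of Cripto KO F/A are even, so they were halved for its intervals. The method was tested on simulated data. Calculations used Python 3.11.15 with scipy 1.17.1, and R 4.3.3 with edgeR 4.0.16 and DESeq2 1.42.0 for scaling factors alone, with no test.

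Named genes were Tdgf1, genes the study names in serum/LIF, the 15 called genes a direction with the largest ratio and at least 200 reads, the 5 with the largest difference, and members of lists that were called or had the most reads. The genes and lists were chosen with earlier results of these data known. Alternatives were other scalings, count filters, fold thresholds, interval levels, an added constant and a length correction. Some genes are not reported here. Nothing says that replicate cultures exist behind a library.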

Additional observations from a re-analysis of the deposited data

Results flagged for a closer look

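Of the 506 genes called in serum/LIF, 33 were called in the opposite direction in F/A, and 3 of these are named in the signalling results above. The difference between the cultures was not tested, since each group has 1 library. Lefty1 had a log2 ratio of Cripto KO over WT of 1.82 in serum/LIF and -1.70 in F/A. Lefty2 had 1.57 and -1.31. Notum had -1.02 and 2.37.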

How the results depend on the processing

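No paired analysis was possible because each group has 1 library and the labels give no replicate numbers. Leaving out a library was not possible for the same reason. The counts of calls (209 higher, 297 lower) moved by over 1.5 times with the thresholds. With a mean of at least 50 raw counts they were 83 and 95, at 1.5-fold 550 and 768, at 3-fold 76 and 105, and with a stricter interval 98 and 197. The fold alone gave 438 higher, and all genes of the raw table scaled by totals gave 547 lower. Other scalings stayed within 1.5 times: library totals gave 154 higher and 358 lower, TMM 159 and 354, and DESeq2 size factors 160 and 351, or 30.1%, 31% and 31.3% higher against 41.3%. The log2 ratio of Tdgf1 was -4.12 with 5 added to each value and -4.10 after length correction, and the medians of the OXPHOS and ribosomal lists after that correction were -0.24 and -0.0818. Of the other 219 values, counts stayed within 1.5 times, single ratios within their counting interval, and list medians within an interval set by the spread between members, which is wide for some lists. Over members with a mean of at least 50 raw counts the median of the X-linked list was -0.82 in place of -1.75, and that of the primitive streak list -0.31 in place of 0. That of the Hox list was 0.07 in place of 0.37. Of 355 values of named genes none reversed, and 1 moved, that of Grb10, to 1.28. Depth limits weak genes: a gene with 50 reads in the higher library is near the median of those called higher.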
